A study of Mus musculus with 11 samples.

Results

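Oligodendrocyte and myelin genes were followed through a 16-hour fast in the mouse hypothalamus and cerebellum. The set holds Olig1, Olig2, Ugt8a, Aspa, Mbp, Mobp, Mog, Mag and Cnp, and its members were taken as all array probes that the platform annotation assigns to exactly these symbols. Each of the 9 genes had 1 probe, so the set comprises 9 of the 34999 probes on the array, and none was lost to a filter. The genes were selected on their fasting changes in both regions, which were already known, so their values are given as a description, without a test of their own. The tissue came from wild-type female SV/129 mice aged 10 weeks. In the fasted group, 6 mice lost their chow when the dark phase began and were killed 16 hours later, while 6 fed mice kept it, and all had water. For either region, purified RNA of 6 mice in 1 feeding state made 1 pool, and the 4 pools were read on CodeLink whole genome arrays, single-colour arrays of biotin-labelled cRNA. There were 3 arrays each for the hypothalamus of fed mice, the hypothalamus of fasted mice and the cerebellum of fed mice, and 2 for the fasted cerebellum, of which 1 more had failed quality control. Arrays of a group repeat the same pooled RNA, so every SE and test here covers technical spread between arrays and compares pools, not mice.

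Oligodendrocytes wrap axons of the central nervous system in myelin, a stack of membranes rich in the lipid galactosylceramide. Olig1 and Olig2 are transcription factors that set up and maintain the lineage, Ugt8a makes galactosylceramide, and Aspa releases acetate for lipid synthesis from a metabolite that neurons supply. Mbp and Mobp are proteins of compact myelin, and Mog, Mag and Cnp lie at the outer face, the inner wrap and the uncompacted cytoplasm of the sheath. In adult brain the proteins of myelin are long-lived, and the precursor cells of the lineage also express Olig1 and Olig2.

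Deposited values came as ratios whose median over the 3 fed arrays of a region was 1 at all 34999 probes, so no level can be compared between genes or regions, and neither the oligodendrocyte identity of the signal nor the dissected region could be checked against defining markers by level. The ratios below are divided by the median of their array. The median SD between arrays of a group lay between 0.0637 and 0.0866 log2 over all probes, and the residual SD of the members lay between 0.0529 for Mog and 0.18 for Olig2. In whole tissue, fewer oligodendrocytes and less RNA per oligodendrocyte cannot be told apart.

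Olig1, Olig2 and Ugt8a stood lower in the fasted pools of both regions, with between 0.568 and 0.716 of the fed level, while the probes of Mbp, Mog, Mag and Cnp were not called in either region. Mobp was called lower in the cerebellum, and Aspa was the member called higher, also in the cerebellum. Called here means an adjusted p under 0.05 by limma over all 34999 probes with Benjamini-Hochberg adjustment. In the hypothalamus 3 of 9 members were called lower and 0 higher, where 14.2% of all probes were called, 7.89% lower and 6.34% higher. At an unadjusted p under 0.05, limma gave 4 members lower and 0 higher, against 16.5% and 15.6% of all probes. In the cerebellum 4 members were called lower and 1 higher, where 20.9% of all probes were called, 11.2% lower and 9.66% higher. The unadjusted threshold gave 4 lower and 2 higher there, against 17% and 16.2% of all probes. Because these changes were in view when the genes were picked, the counts are not evidence about the set.

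**Figure D1:**
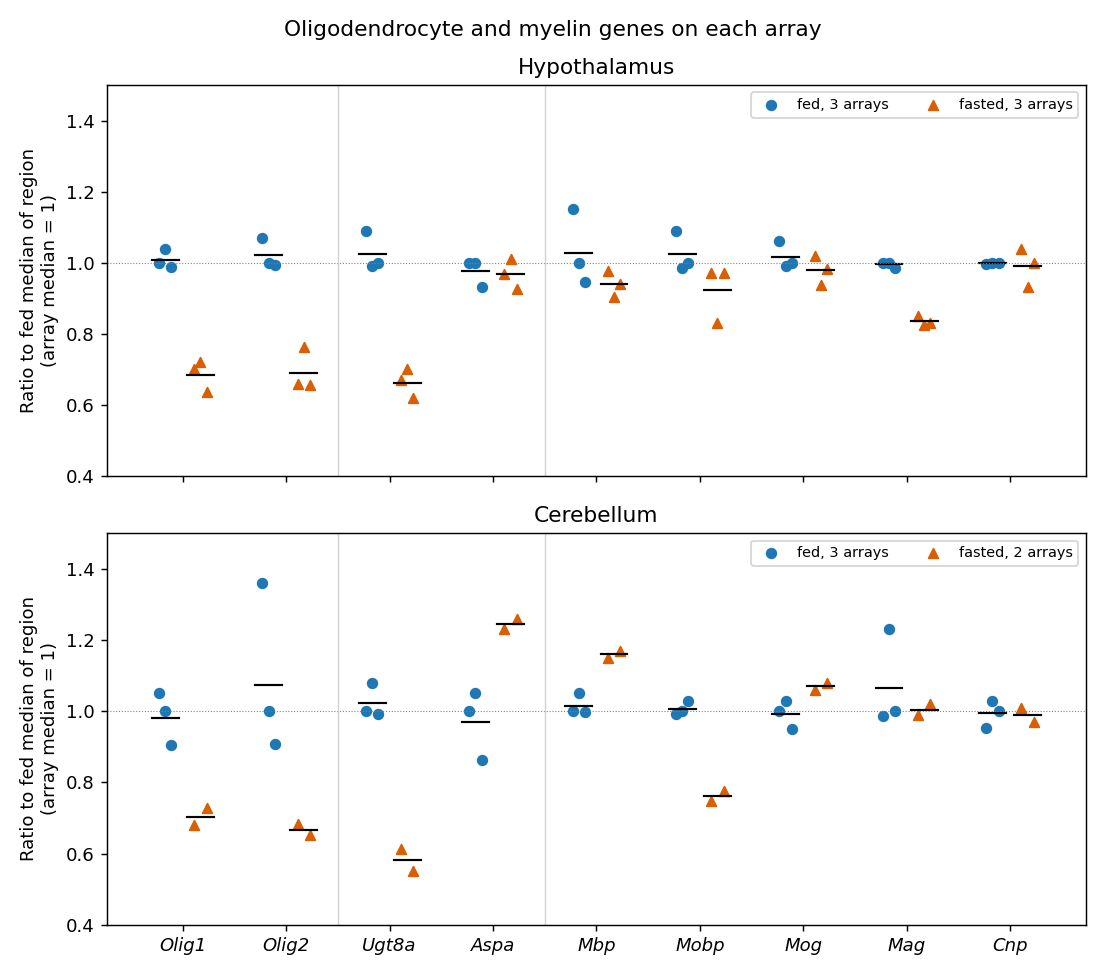
Ratio to the fed median of the region (vertical axis, linear, not starting at 0) for the 9 members on each array, with hypothalamus above and cerebellum below. Circles are fed arrays, triangles fasted arrays and black bars the group means of log2 ratios; Olig1, Olig2 and Ugt8a on fasted arrays lie between 0.55 and 0.763, apart from all fed arrays, while Cnp lies between 0.932 and 1.04 on every array.

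Promoter sequences were drawn for the members called lower that RefSeq's table held without overlap of the gene itself. Of the 9 members 7 were searched in a window from 250 bases before to 50 after the start, and 6 of these had 1 window (GRCm38.p6). The table held no window for Olig1, and Mbp was left out because member windows on its chromosome were not searched. The shares over all windows given below left out no chromosome. The 3 stretches below lie upstream of the annotated gene and are shown because their genes were called lower in both regions or in cerebellum and because they differ in base composition and in the words they hold. Capitals mark the E-box CANNTG, bound by basic helix-loop-helix factors such as the Olig proteins, the Sox words ACAAAG and ACAATG, the TATA word TATAAA and the GC box GGGCGG, searched on both strands.
Ugt8a, chr3:125938683-125938902, minus strand: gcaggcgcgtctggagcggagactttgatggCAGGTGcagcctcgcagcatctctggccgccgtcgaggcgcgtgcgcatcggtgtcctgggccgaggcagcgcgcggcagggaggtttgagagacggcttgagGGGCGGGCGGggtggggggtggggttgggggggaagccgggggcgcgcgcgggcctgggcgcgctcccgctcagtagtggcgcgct
Olig2, chr16:91225300-91225549, plus strand: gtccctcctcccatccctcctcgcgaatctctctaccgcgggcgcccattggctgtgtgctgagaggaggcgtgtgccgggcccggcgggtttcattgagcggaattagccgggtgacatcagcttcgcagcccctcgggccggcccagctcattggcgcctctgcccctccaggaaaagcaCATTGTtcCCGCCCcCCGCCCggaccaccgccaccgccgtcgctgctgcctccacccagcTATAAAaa
Mobp, chr9:120149492-120149741, plus strand: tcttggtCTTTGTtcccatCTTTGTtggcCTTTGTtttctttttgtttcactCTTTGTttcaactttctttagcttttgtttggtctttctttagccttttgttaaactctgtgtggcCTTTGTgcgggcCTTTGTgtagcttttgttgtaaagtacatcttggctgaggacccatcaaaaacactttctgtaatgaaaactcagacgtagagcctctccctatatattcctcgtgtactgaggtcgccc

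The Ugt8a stretch is 75% G and C and holds 1 E-box, 189 bases before the gene's edge, and 2 overlapping GC boxes. The Olig2 stretch is 66.8% G and C and holds a TATA word 8 bases before the edge, 2 GC boxes and 1 Sox word. The Mobp stretch is 40.8% G and C and holds 6 Sox words ACAAAG, all on the minus strand and between 243 and 120 bases before the edge, with no E-box, TATA word or GC box. Of 32851 promoter windows of 300 bases, 18.7% held the word ACAAAG at least once, and the window of Mobp was the 1 with 6 or more, a count chosen after it was seen. E-boxes stood in 6 of the 9 member windows against 72.3% of all windows, GC boxes in 3 against 35.7%, ACAAAG in 4 against 18.7%, ACAATG in 1 against 12.6%, TATAAA in 2 against 13.6%, and the Myrf word CTGGCAC in 3 against 5.01%. The E-box CAGCTG and CAGATG, both forms of CANNTG, stood in 1 window each, against 16.3% and 17.2%. The 9 windows come from 7 genes, without Olig1 and Mbp, and 3 of them belong to Mag. A word match is a description of these letters and shows no binding.

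Olig1 encodes a basic helix-loop-helix factor needed for oligodendrocyte maturation. Its hypothalamus ratios were 1, 1.04 and 0.989 on fed arrays and 0.701, 0.72 and 0.637 on fasted arrays. In the cerebellum the fed arrays gave 1.05, 1 and 0.906 and the fasted arrays 0.68 and 0.727. In both regions every fasted array lay below every fed array. The change was -0.56 ± 0.07 log2 (SE) in hypothalamus and -0.48 ± 0.07 in cerebellum, and the difference between regions, hypothalamus minus cerebellum, was -0.08 ± 0.10.

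Olig2 encodes the related factor that specifies the lineage, and the RefSeq table places both genes on the same chromosome with a long non-coding RNA gene between them. Its hypothalamus ratios were 1.07, 1 and 0.993 on fed arrays and 0.66, 0.763 and 0.657 on fasted arrays. In the cerebellum the fed arrays gave 1.36, 1 and 0.907 and the fasted arrays 0.682 and 0.651. The groups did not overlap in either region, but fed replicate 1 of the cerebellum stood well above the other fed arrays. The change was -0.56 ± 0.13 in hypothalamus and -0.69 ± 0.15 in cerebellum, and 16.5% of all probes had a larger residual SD. Olig2 lost its call in hypothalamus without fed replicate 1, fed replicate 2, fasted replicate 1 or fasted replicate 3, with values from -0.58 to -0.53, and in cerebellum without fasted replicate 1 (-0.72) or fasted replicate 2 (-0.65).

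Ugt8a encodes the ceramide galactosyltransferase that makes the main glycolipid of myelin, and its change averaged over both regions was the largest in size among the members. The hypothalamus ratios were 1.09, 0.991 and 1 on fed arrays and 0.672, 0.701 and 0.619 on fasted arrays. In the cerebellum they were 1, 1.08 and 0.993 on fed arrays and 0.614 and 0.55 on fasted arrays. All fasted arrays lay below all fed arrays of their region. The fasted level was 0.647 of the fed level in hypothalamus (-0.63 ± 0.07 log2) and 0.568 in cerebellum (-0.82 ± 0.08). In hypothalamus 2.99% of all probes had a lower value, and in cerebellum 1.68%. The changes of the regions differed by 0.19 ± 0.10, which limma did not call.

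Aspa encodes aspartoacylase, which cleaves N-acetylaspartate in oligodendrocytes. Its hypothalamus ratios were 1, 1 and 0.933 on fed arrays and 0.97, 1.01 and 0.927 on fasted arrays, and the groups overlapped. In the cerebellum the fed arrays gave 1, 1.05 and 0.863 and the fasted arrays 1.23 and 1.26, so that both fasted arrays lay above all fed arrays. The change was -0.01 ± 0.07 in hypothalamus and 0.36 ± 0.08 in cerebellum. The difference between regions, -0.38 ± 0.11, made Aspa the 1 member of 9 called there, and it was called lower. Of all probes 17.7% were called on that difference, 9.01% lower and 8.66% higher, and 0 members were called higher. At an unadjusted p under 0.05 limma gave 1 member higher and 2 lower, against 15.8% and 16% of all probes. The cerebellum call was lost without fasted replicate 1 (0.37) or fasted replicate 2 (0.35) of the cerebellum, and the call on the difference was lost without any 1 of 8 arrays, namely both fasted arrays and fed replicate 1 of the cerebellum and all hypothalamus arrays but fed replicate 3.

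Mbp encodes myelin basic protein, which holds the cytoplasmic faces of compact myelin together. Its ratios in hypothalamus were 1.15, 1 and 0.947 on fed arrays and 0.978, 0.903 and 0.941 on fasted arrays, with overlap. In cerebellum they were 1, 1.05 and 0.997 on fed arrays and 1.15 and 1.17 on fasted arrays, all fasted arrays being higher. The change was -0.13 ± 0.07 in hypothalamus and 0.20 ± 0.08 in cerebellum, neither of them called.

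Mobp, whose promoter stretch carries the 6 ACAAAG words, encodes a small basic protein of compact myelin. In hypothalamus its ratios were 1.09, 0.985 and 1 on fed arrays and 0.972, 0.831 and 0.971 on fasted arrays. All fasted arrays lay lower, and the change of -0.15 ± 0.07 was not called. The cerebellum ratios were 0.992, 1 and 1.03 on fed arrays and 0.747 and 0.775 on fasted arrays. There the change was -0.40 ± 0.08, or 0.756 of the fed level, and it kept its call without any 1 of the 11 arrays. The cerebellum estimates of Mbp and Mobp had opposite signs, but that of Mbp was not called, and a difference between these genes was not tested.

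Mog, a glycoprotein of the outermost sheath, was called in neither region. Its fasted ratios ranged from 0.939 to 1.02 in hypothalamus against 0.99 to 1.06 on fed arrays, and they were 1.06 and 1.08 in cerebellum against 0.95 to 1.03. The groups overlapped in hypothalamus and stood apart in cerebellum, with changes of -0.05 ± 0.05 and 0.11 ± 0.05. Mag, an adhesion molecule facing the axon, had hypothalamus ratios of 1, 1 and 0.986 on fed arrays and 0.85, 0.826 and 0.832 on fasted arrays. These groups stood apart, at -0.25 ± 0.08, and the change was not called. In the cerebellum Mag overlapped between groups at -0.09 ± 0.09, with fed replicate 2 at 1.23 and all other arrays between 0.986 and 1.02. Without that array Mag stood at 0.01 in cerebellum, not called, and limma called it lower in hypothalamus. Cnp, an enzyme of uncompacted myelin, had groups that overlapped in both regions, with changes of -0.01 ± 0.05 in hypothalamus and -0.01 ± 0.06 in cerebellum.

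The order of the changes in hypothalamus ran from Ugt8a over Olig2 and Olig1 to Mag, Mobp, Mbp, Mog, Aspa and Cnp. The gap between Olig1 and Mag, 0.30 log2, was the 1 gap between neighbours larger than 2 combined SE (combined SE 0.10). In cerebellum the order ran from Ugt8a over Olig2, Olig1 and Mobp to Mag, Cnp, Mog, Mbp and Aspa, and again 1 gap passed that size, the 0.31 between Mobp and Mag (combined SE 0.12). The genes were picked on these changes and then sorted by them, so the gaps are a description and no difference between genes was tested. The fasted arrays lay wholly below the fed arrays for 5 of 9 members in hypothalamus, against 19.5% of all probes, and wholly above for 0, against 17.8%. In cerebellum they lay wholly below for 4, against 24.9%, and wholly above for 3, against 25.1%, with 2 fasted arrays. The members' median change was -0.15 in hypothalamus and -0.09 in cerebellum, beside 0.00 and 0.01 over all probes.

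**Figure D2:**
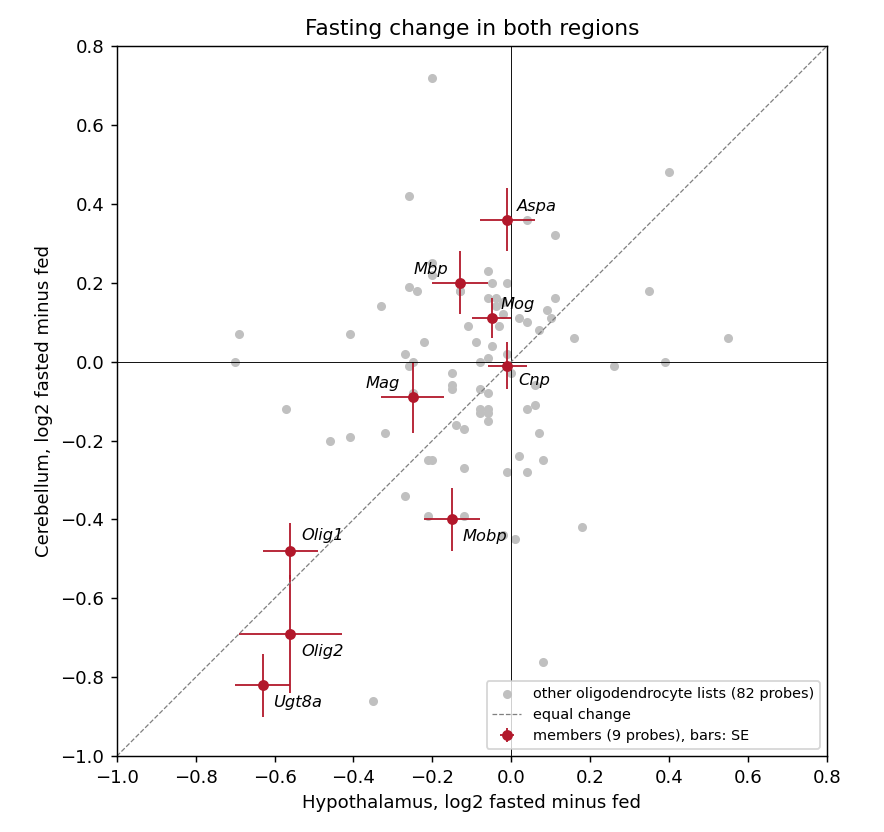
Change between fasted and fed arrays (log2) in hypothalamus (horizontal axis) and cerebellum (vertical axis) for the 9 members with SE bars and, in grey, for 82 probes of other oligodendrocyte genes; the dashed line marks equal change. Olig1, Olig2 and Ugt8a lie together at lower left, and Aspa lies at -0.01 and 0.36.

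The wider lineage was described with 5 lists of other genes, 74 genes in all, of which 65 had at least 1 probe with a single symbol. These 82 probes hold no member. In hypothalamus 18 were called lower and 3 higher, 25.6% against 14.2% of all probes, and in cerebellum 12 lower and 6 higher, 22% against 20.9%. Their median change was -0.06 in hypothalamus and 0.00 in cerebellum. Of the calls, 7 of 21 in hypothalamus and 9 of 18 in cerebellum held without any 1 of the 11 arrays. In hypothalamus these were Fa2h, Josd2, Lpar1, Pdgfra, Ppp1r14a, Sox6 and Tcf7l2. In cerebellum they were Anln, Ermn, Gjc3, Lpar1, Ndrg1, Pex5l, Tspan2, Ugcg and Vcan. The 21 calls in hypothalamus became 8 when fed replicate 1 of that region was left out, 9 when fed replicate 2 was, 12 when fasted replicate 2 was and 9 when fasted replicate 3 was, and the 18 in cerebellum became 11 without its fasted replicate 1. Lower in both regions were 5 probes, those of Ermn, Ugcg, Fa2h, Josd2 and Lpar1, which is 27.8% of those called lower in hypothalamus and 41.7% of those called lower in cerebellum. Over all probes 564 were lower in both, 20.4% and 14.4% of the respective calls. Both regions were dissected from the same mice.

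Among transcription factors of the lineage, 3 of 10 probes were called lower in hypothalamus and 0 higher, 30% against 14.2% of all probes. At an unadjusted p under 0.05, limma gave 5 lower and 1 higher, against 16.5% and 15.6% of all probes. Sox10, which with Olig2 drives myelin genes, fell by 0.25 ± 0.05 log2 (adjusted p = 0.0177, limma), Nkx6-2, active in myelinating cells, fell by 0.26 ± 0.05 (0.0147), and Tcf7l2 fell by 0.69 ± 0.05 (0.000381). Tcf7l2 is expressed in differentiating oligodendrocytes and also strongly in thalamic neurons. In cerebellum limma called 0 of the 10, against 20.9% of all probes. At an unadjusted p under 0.05, 1 was higher and 3 were lower there, against 16.2% and 17% of all probes. Sox10 stood there at 0.00 ± 0.06 and Myrf, which switches on myelin genes, at -0.15 ± 0.06. Nkx2-2, a partner of the Olig factors in early lineage cells, stood at -0.20 and -0.25 in the 2 regions, with all fasted arrays lower in both and no call; it was named after its values were seen.

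Among lipid genes of myelin, Fa2h, which hydroxylates the fatty acids of galactosylceramide, fell by 0.32 ± 0.05 in hypothalamus (adjusted p = 0.00629, limma) and by 0.18 ± 0.06 in cerebellum (0.0469). Ugcg, which makes glucosylceramide from the same ceramide that Ugt8a uses, fell by 0.35 ± 0.09 (0.0303) and by 0.86 ± 0.10 (0.000317). Nat8l is the synthase of the metabolite that neurons supply and Aspa cleaves. It fell by 0.27 ± 0.07 in hypothalamus (0.0326), while its other probe, at 0.11, was not called. Of the 12 probes, 3 were lower and 0 higher in hypothalamus, 25% called against 14.2% of all probes. In cerebellum 2 were lower and 0 higher, 16.7% against 20.9%. At an unadjusted p under 0.05, limma gave 5 lower and 0 higher in hypothalamus, against 16.5% and 15.6% of all probes. In cerebellum it gave 4 lower and 0 higher, against 17% and 16.2%. Gal3st1, which sulfates the product of Ugt8a, was not called at -0.22 and 0.05; it was named after its values were seen. The Fa2h call in cerebellum was kept in 2 of the 11 fits that each leave out 1 array.

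Probes of structural myelin genes were called in both directions, as were probes over the whole array. Of 20 probes, 2 fell and 1 rose in hypothalamus, 15% called against 14.2% of all probes. In cerebellum 4 fell and 3 rose, 35% against 20.9%. Gjc3, a glial gap junction gene, fell by 0.20 ± 0.05 in hypothalamus (adjusted p = 0.0228, limma) and rose by 0.72 ± 0.05 in cerebellum (3.2e-05). Ermn, a cytoskeletal protein gene of late oligodendrocytes, fell by 0.21 ± 0.05 in hypothalamus (0.0389), and its other probe, at -0.09, was not called. In cerebellum the same Ermn probe fell by 0.39 ± 0.06 (0.00221), while the other, at 0.05, was not called. Cd9, a tetraspanin gene, was 0.26 ± 0.07 higher in hypothalamus (0.044), and its other probe, at -0.08, was not called. Of the 11 fits that each leave out 1 array, 1 kept this Cd9 call and 4 kept the hypothalamus call of Ermn. In cerebellum Ndrg1 (-0.45 ± 0.05; its other probe, at -0.25, was not called) and the tetraspanin gene Tspan2 (-0.44 ± 0.05) fell and the proteolipid gene Pllp rose by 0.42 ± 0.09. Nfasc, an adhesion gene that neurons also express, had 1 cerebellum probe called lower (-0.25) and another called higher (0.32). Its remaining probe, at 0.12, was not called there. The lower call was kept in 2 and the higher call in 3 of the 11 fits that each leave out 1 array. Nfasc is an exception, named after its values were seen.

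Precursor genes showed 2 higher and 2 lower of 20 probes in hypothalamus, 20% called against 14.2% of all probes. They showed 1 higher and 1 lower in cerebellum, 10% against 20.9%. Pdgfra, the growth factor receptor that marks precursors and also meningeal cells, rose by 0.55 ± 0.08 in hypothalamus (adjusted p = 0.00541, limma), but its other probe stood at 0.04 and was not called. Sox6, which holds precursors undifferentiated, fell by 0.41 ± 0.06 (0.00664). Bcas1, a gene of newly forming oligodendrocytes, was 0.39 ± 0.10 higher (0.037), with its other probe at 0.04. Lhfpl3 was lower in hypothalamus (-0.20 ± 0.05) and higher in cerebellum (0.22 ± 0.06), and its other probe stood at 0.40 and 0.48 without a call. Vcan, a matrix proteoglycan gene, fell by 0.28 ± 0.05 in cerebellum, with its other probe at 0.06.

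Other genes of mature oligodendrocytes had 8 of 20 probes lower and 0 higher in hypothalamus, 40% called against 14.2% of all probes. There 11 were lower and 0 higher at an unadjusted p under 0.05 (limma), against 16.5% and 15.6% of all probes. In cerebellum 5 were lower and 2 higher, 35% against 20.9%. The unadjusted threshold gave 7 lower and 5 higher there, against 17% and 16.2% of all probes. Josd2 fell by 0.46 ± 0.05 in hypothalamus (adjusted p = 0.00162, limma), Car2, a carbonic anhydrase gene, by 0.41 ± 0.09 (0.0244) and Cryab, a small heat shock protein gene also expressed by other glia, by 0.57 ± 0.14 (0.029). Lpar1, a lysophosphatidic acid receptor gene, was lower in both regions, at -0.27 and -0.34 ± 0.05. Anln fell by 0.39 ± 0.05 in cerebellum, with its other probe at -0.13 and not called, and Efnb3 rose by 0.36 ± 0.08 there. Pex5l had 3 probes that disagreed: 1 was called lower in hypothalamus (-0.70 ± 0.15), another lower in cerebellum (-0.76 ± 0.11), and the third was called in neither, so no direction is given for the gene.

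**Figure D3:**
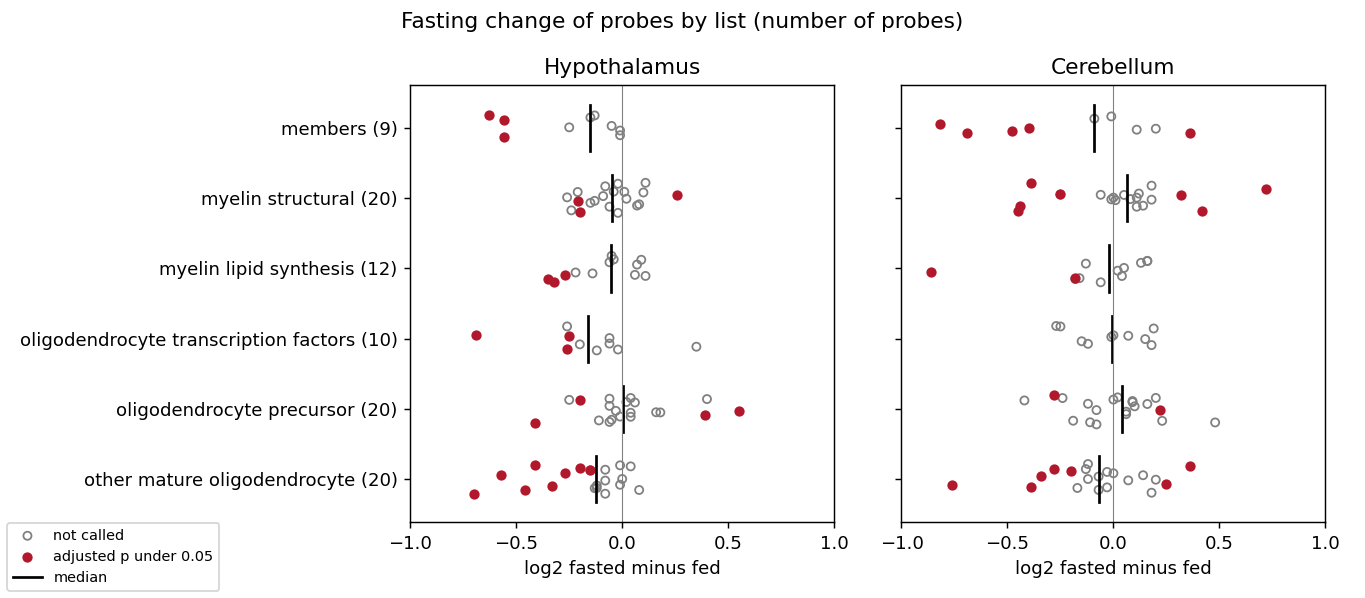
Change between fasted and fed arrays (log2, horizontal axis) of each probe by list, with the number of probes in brackets, hypothalamus left and cerebellum right. Filled points passed an adjusted p under 0.05 by limma and black bars are medians; the list of other mature oligodendrocyte genes has 8 filled points in hypothalamus, all below 0, and structural genes in cerebellum have filled points on both sides.

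Markers of other cells moved in the same comparisons, and their part in the members' changes was not tested. In hypothalamus 12 of 20 thalamus probes were called lower and 0 higher, 4 of 17 pan-neuronal probes lower and 6 of 11 microglia probes lower. Astrocyte genes had 5 of 16 probes lower, from 3 genes, and choroid plexus had 2 of 7 lower and 1 higher. Meninges and pericytes had 6 of 10 probes higher, their mean lying at 0.19 to 0.20 on fasted arrays. Over all probes 7.89% were called lower and 6.34% higher. Tcf7l2 is in both the thalamus list and the list of lineage transcription factors. The mean log2 ratio of the thalamus list lay between -0.40 and -0.38 on fasted hypothalamus arrays and between -0.04 and 0.05 on fed ones. That of the 9 members lay between -0.28 and -0.22 against -0.03 and 0.07. In cerebellum the thalamus list stood at 0.01 on fasted arrays and between -0.02 and 0.09 on fed ones, while the members stood at -0.18 against -0.06 to 0.07. The thalamus probes went both ways there, with 5 of 20 called lower and 1 higher and values from -0.78 to 1.03. Over all probes 11.2% were called lower and 9.66% higher in cerebellum. Of the other lists in cerebellum, 5 of 7 choroid plexus probes were lower, 5 of 16 astrocyte probes lower and 3 higher, and 5 of 17 pan-neuronal probes higher and 2 lower. Meninges and pericytes had 3 of 10 probes lower and 1 higher there, with a mean of -0.28 to -0.26 on fasted arrays against -0.07 to 0.01 on fed ones, and microglia had 2 of 11 lower, with a mean of -0.12 on both fasted arrays. Since ratios keep no level, no marker could be seen to be absent.

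Probes with profiles most like those of the members were found by the root mean square distance of log2 ratios over the 11 arrays. For Ugt8a the 5 nearest genes were Fabp7 (distance 0.0996), Shc3 (0.104), Apba3 (0.111), Cd209f (0.116) and Sdf2l1 (0.132). Fabp7 encodes a fatty acid binding protein of glia and stood at -0.65 in hypothalamus and -0.66 in cerebellum. Of the 45 nearest probes over all 9 members, 1 belonged to the members or the oligodendrocyte lists, Olig1 beside Olig2 (0.135). The members and these lists hold 9 and 82 of the 21590 probes with 1 symbol. The closest pair of members was Mog and Cnp (0.0677), and 3956 probes lay within 0.1 of Cnp and 3643 within 0.1 of Mog, against 16 for Olig1, 1 for Ugt8a and 0 for Olig2.

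**Figure D4:**
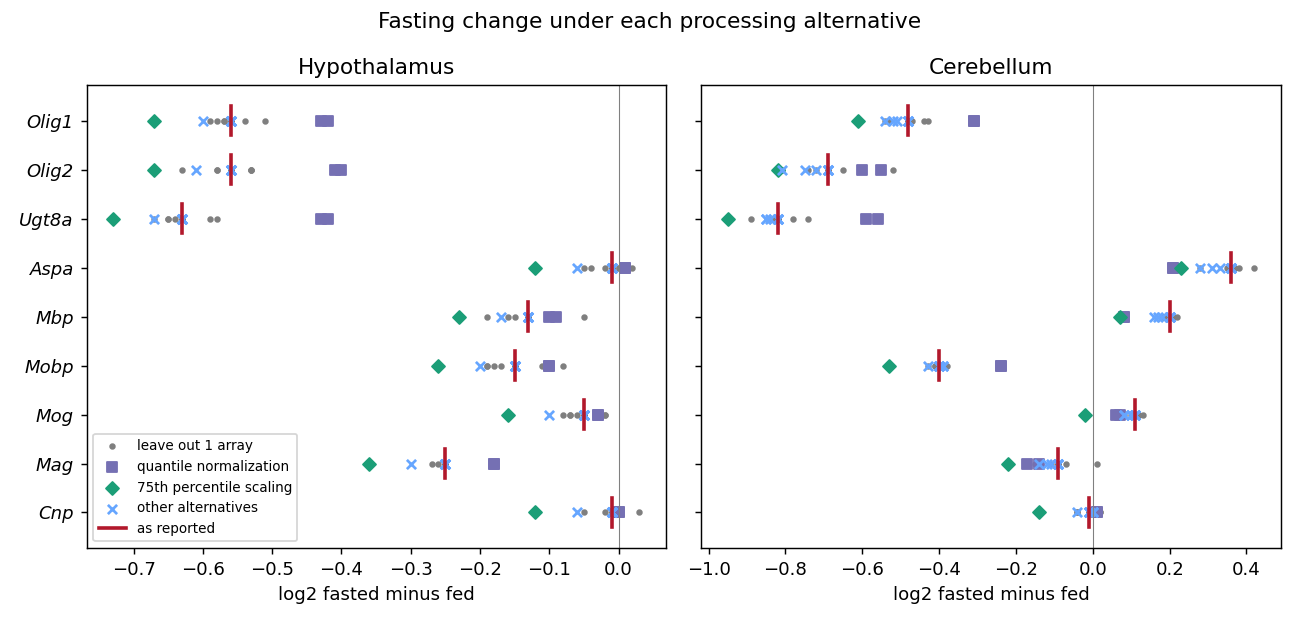
Change between fasted and fed arrays (log2, horizontal axis) of each member under every processing alternative, hypothalamus left and cerebellum right; the red bar is the value as reported. Olig1, Olig2 and Ugt8a stay below 0 under all alternatives run, at -0.40 or lower in hypothalamus and -0.31 or lower in cerebellum.

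The direction of the called members held under all alternatives run, but not their calls. The SD of log2 ratios over all probes was 0.238 to 0.265 on fed arrays and 0.378 to 0.517 on fasted arrays. Quantile normalization, which gives arrays 1 common distribution, left 0 member calls in hypothalamus and 1, Ugt8a, in cerebellum. Run over all arrays, it also took the calls over all probes from 4980 to 32 in hypothalamus and from 7302 to 441 in cerebellum. The loss of calls was therefore not particular to the members. Scaling to the 75th percentile shifted the median of all probes by -0.11 log2 in hypothalamus and -0.12 in cerebellum. Under it 7 members were called lower in hypothalamus, Aspa lost its call in cerebellum at 0.23, and Mog turned from 0.11 to -0.02 there, which relative to that median is still higher.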

How the data were processed

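The authors hybridised pooled RNA of 4 groups to CodeLink arrays and deposited 1 table of ratios. Each probe is divided by the median of the 3 fed arrays of its region (tolerance 1e-06, tested on the file). No source used here names the software, background correction or scaling, and the number of arrays limits the precision. Members and gene lists were chosen with earlier results of these data known. Ratios were divided by the array median, raised to 0.1 where lower, and put on the log2 scale. A model of the 4 group means was fitted to the 11 arrays with limma 3.58.1 (R 4.3.3); it had 7 residual and 1.82 prior degrees of freedom, no variance trend, two-sided moderated tests and Benjamini-Hochberg adjustment over 34999 probes. The steps were tested on simulated data. Genes were named from the platform annotation, where 21590 probes had 1 symbol, 681 several and 12728 none. All members are named; from each other list and comparison, up to 4 called genes with the largest change, or the 2 with the smallest residual SD where none was called, and exceptions are marked in the text. Alternatives changed the floor, scaling, variance prior, arrays fitted, replicate block, a filter on ratios outside 0.1 to 10, and each array in turn. Same-numbered arrays of different groups had deviations correlated between -0.0383 and 0.0953, 0 of 15 pairs over 0.1, so the numbers were not taken to pair them.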

Additional observations from a re-analysis of the deposited data

Results flagged for a closer look

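The change with fasting differed between regions at 1 probe each of 13 named genes of the oligodendrocyte lists by limma's interaction test (hypothalamus minus cerebellum, log2; adjusted over all probes). It was more negative in hypothalamus for 7 of them. Gjc3 differed by -0.92 (adjusted p = 8.4e-05), its 2 changes being -0.20 and 0.72, and Pllp by -0.68 (0.00628), at -0.26 and 0.42. Tcf7l2 differed by -0.76 (0.000465), Car2 by -0.48 (0.0472), Ppp1r14a by -0.47 (0.00185), Klk6 by -0.45 (0.00354) and Lhfpl3 by -0.42 (0.00848), whose other probe differed by -0.07 without a call. Lhfpl3 and Klk6 were called in opposite directions in the 2 regions, as was Gjc3, the 3 such probes among 82, while 1.94% of all probes were. Leaving out each of the 11 arrays in turn kept the hypothalamus call in 4 fits for Lhfpl3, 6 for Klk6 and 7 for Gjc3. Their cerebellum calls were kept in 7, 10 and 11 fits. At the other 6 probes the value in cerebellum was below that in hypothalamus. For Pdgfra both were above 0, at 0.55 in hypothalamus and 0.06 in cerebellum. The Pex5l probe differed by 0.84 (0.00479), but the gene's other probes, at 0.04 and -0.70, were not called and 1 pointed the other way, so the gene has no direction. Ugcg differed by 0.52 (0.024), Pdgfra by 0.49 (0.0256), Ndrg1 by 0.45 (0.00358), Tspan2 by 0.43 (0.0026) and Vcan by 0.32 (0.0149). The other probes of Pdgfra (-0.06), Ndrg1 (0.32) and Vcan (0.10) were not called. Over the lists 17 of 82 probes were called, 10 lower and 7 higher. This is 20.7%, against 17.7% of all probes, and 9 of the 17 held without any 1 array. Car2, Ugcg, Pdgfra and Vcan were among those that did not.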

How the results depend on the processing

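Of the members' changes in each region, those called kept their sign under all alternatives run. Member calls in hypothalamus numbered 3, and 7 with 75th percentile scaling, 0 with quantile normalization over all arrays or within regions (2 at an unadjusted p under 0.05 in limma), and 2 to 4 without 1 array. In cerebellum they numbered 5, and 1 with either quantile setting, 3 in the arrays of the region alone, and 3 to 6 without 1 array, 3 without either fasted array of the cerebellum, where a lone fasted array is assumed to vary like the other groups. The 1 call on the difference became 0 with either quantile setting (0 at an unadjusted p under 0.05 in limma) and 0 to 2 without 1 array. Calls among the other oligodendrocyte probes in hypothalamus were 21 (14.3% higher), 39 with 75th percentile scaling (2.56% higher), 0 with either quantile setting (12 unadjusted), 10 in the arrays of the region alone and 8 to 21 without 1 array, lowest without fed replicate 1. In cerebellum they were 18 (33.3% higher), 33 with 75th percentile scaling (9.09% higher), 1 with either quantile setting, 9 in the arrays of the region alone and 11 to 19 without 1 array, lowest without fasted replicate 1 of the cerebellum. On the difference they were 17, 0 with either quantile setting (9 and 8 unadjusted) and 11 to 23 without 1 array, lowest without fed replicate 1 of the cerebellum. Over all probes, hypothalamus calls were 4980 (44.6% higher), 9254 with 75th percentile scaling (7.72%), 5695 unscaled (24.1%), 32 (59.4%) and 25 (40%) with the quantile settings, 2210 in its arrays alone and 1940 to 5438 without 1 array (of the hypothalamus, 2442 when fed replicate 1 was left out, 2165 for fed replicate 2, 2329 for fasted replicate 2 and 1940 for fasted replicate 3). Cerebellum calls were 7302 (46.3%), 11088 with 75th percentile scaling (15.6%), 441 (12.7%) and 466 (25.1%) with the quantile settings over all arrays and within regions, and 4540 (without fasted replicate 1) to 7549 without 1 array. Calls on the difference were 6184 (49%), 153 (79.1%) and 128 (64.8%) with the quantile settings. The replicate block in the fit of all arrays gave 5458 hypothalamus calls, 3 and 5 member calls in hypothalamus and cerebellum, and 1 on the difference. In the arrays of a region alone, the replicate block gave 48 calls in hypothalamus and 0 in cerebellum (8445 unadjusted), with 0 member calls (4 and 5 unadjusted) and 0 calls among the other oligodendrocyte probes (31 and 21 unadjusted) in each region. All 6 hypothalamus arrays correlated best with the array of their own number in the other group, a hint from the data and not from the design. Signal over background is not kept in ratios, so dim probes could not be recognised.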
